A study of Mus musculus with 12 samples.

Results

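Interferon-stimulated genes were examined in the livers of mice given LNA29, a pair of locked nucleic acid inhibitors against miR-29a and miR-29b/c, and of mice given saline. The members were a list of 51 gene symbols, of which 50 were found among the 21705 genes of the deposited table, and only Tgtp1 was not found under its symbol. All 50 were among the 12486 genes tested. The list was not drawn up from the measured values, but it was proposed with earlier results of these data known, so its counts are descriptions and no test was made on the list as a whole.

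All mice were C57BL/6J females of 10–12 weeks. The LNA29 group (n = 6) received 20 mg/kg of each inhibitor by the tail vein and the saline group (n = 6) received saline by the same route. Livers were collected 7 days later, after a fast of 18 hours. The controls carried no oligonucleotide, so an effect of locked nucleic acid as such and an effect of losing miR-29 cannot be told apart in these 12 livers.

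Interferons are secreted proteins that cells release when they sense foreign nucleic acid. They bind receptors whose kinases, Jak1, Jak2 and Tyk2, phosphorylate transcription factors of the STAT family. A complex that holds Stat2 and Irf9 binds the interferon-stimulated response element, while STAT pairs induced by interferon gamma bind the gamma-activated site. The genes behind these elements encode sensors of viral RNA, enzymes and GTPases that restrict microbes, chemokines and the peptide machinery of MHC class I, and a low level is kept by many healthy tissues.

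The inhibitors were directed against miRNAs that share one seed, the part of a miRNA that pairs with its targets. They are shown because the dosing acted on them, with the seed (bases 2 to 8) in capitals, from RefSeq (GRCm38.p6). The mature sequence of miR-29a-3p lies at chr6:31062673-31062694 on the minus strand, and that of miR-29c-3p at chr1:195037600-195037621 on the plus strand.
mmu-miR-29a-3p: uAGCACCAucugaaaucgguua
mmu-miR-29b-3p: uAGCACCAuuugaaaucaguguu
mmu-miR-29c-3p: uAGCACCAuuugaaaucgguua

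The members' promoters were searched for the elements through which interferon acts. Promoters (250 bases before to 50 after the gene start) were matched for 39 of the 50 members. The core of the response element was taken as GAAANNGAAA on either strand, written TTTCNNTTTC where it lies on the other one. It was found in 19 of these 39 members (48.7%), against 372 of the 9901 tested genes with a promoter (3.76%). The letters of the gamma-activated site, TTCNNNGAA, were found in 8 of the 39 (20.5%), against 8.3% of the tested genes. Stretches from 5 promoters are shown for members with a core and values described in full below, with each core in capitals.
Stat2, chr10:128270248-128270315, plus strand: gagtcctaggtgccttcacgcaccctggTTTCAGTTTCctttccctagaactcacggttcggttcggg
Igtp, chr11:58199492-58199555, plus strand: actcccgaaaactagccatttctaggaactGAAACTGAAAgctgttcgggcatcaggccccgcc
Irgm2, chr11:58214883-58214952, plus strand: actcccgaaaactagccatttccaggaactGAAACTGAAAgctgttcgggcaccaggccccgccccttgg
Ifit1, chr19:34640755-34640843, plus strand: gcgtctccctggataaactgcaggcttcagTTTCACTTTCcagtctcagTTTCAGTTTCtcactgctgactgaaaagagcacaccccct
Isg15, chr4:156200845-156200926, minus strand: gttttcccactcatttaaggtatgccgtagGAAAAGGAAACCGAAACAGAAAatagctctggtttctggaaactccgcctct

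These coordinates are those of GRCm38.p6, whereas the submitters' processing notes name mm9 for the reads. Ifit1 holds 2 cores and Isg15 holds 3 that overlap. The stretches of Igtp and Irgm2, neighbouring genes for immunity-related GTPases, are identical at 62 of the 64 bases compared, so both carry the same core. A match to these letters is a description of the sequence and not a measured binding site.

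Hepatocyte identity was checked with 10 marker genes, and reads for albumin alone made up 35.7% to 46.9% of the reads of a liver. The lowest share was in saline replicate 49. Of the 10 markers, 7 had higher means in LNA29 livers. The markers' median log2 deviation from their means over all livers was -0.89 in saline replicate 49. In every other liver it was -0.065 to 0.23, so that liver alone stood far below the rest. How far the 7 higher means rest on saline replicate 49 was not tested. Only Ahsg, a secreted glycoprotein, passed the unadjusted threshold, at 1212500 to 4270490 in saline livers and 7841411 to 10351189 in LNA29 livers, with no overlap and a log2 fold change of 1.67 ± 0.73 (limma adjusted p = 0.582). Recovered depth was 8217212 to 19062437 reads in the saline livers and 7696081 to 15079236 in the LNA29 livers. Values are given as deposited: the RSEM value of a gene divided by the upper quartile of its library and multiplied by 1000, so that 1 read is worth 9.80 to 24.4 units and a gene without reads is listed at 1. Members had a mean of 1.1 to 269 reads per liver (median 12.9), and 21 of them had a mean under 10 reads.

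Interferon-stimulated genes were mostly lower in LNA29 livers, by a modest amount that no single gene carried past correction. The mean log2 value was lower in 45 of the 50 members (90%), against 61.4% of all genes tested. The median log2 fold change of the members was -0.51, against -0.093 over all genes tested. At an unadjusted limma p under 0.05, 13 members were lower (26%) and 0 were higher, where all genes tested gave 5.97% lower and 1.95% higher. No member reached a limma adjusted p under 0.05 (0.16% of all genes did), and the smallest adjusted p was 0.237, for Oasl1.

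**Figure D1:**
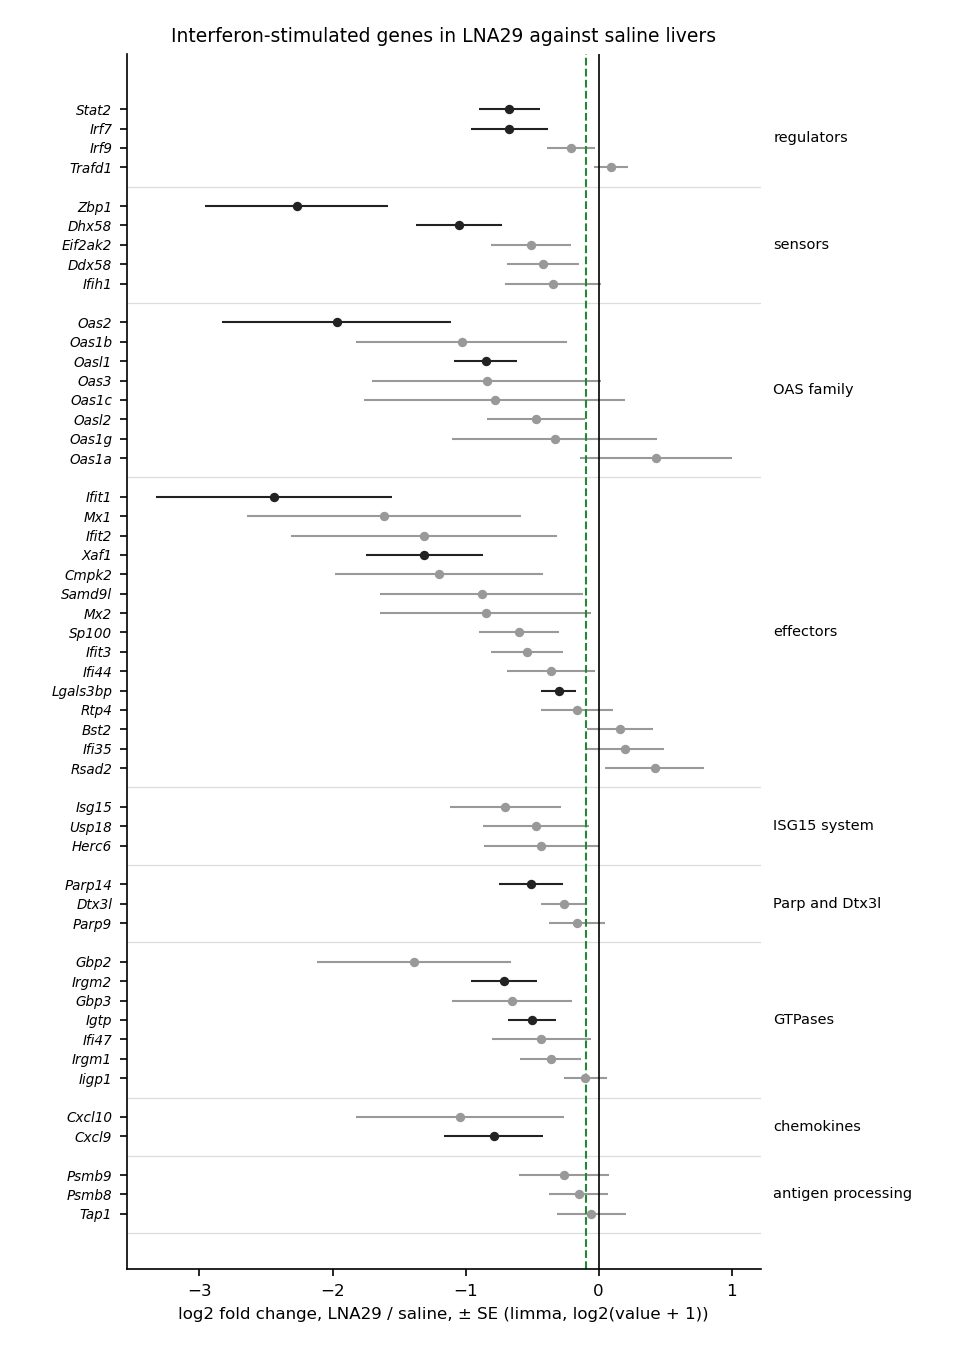
Log2 fold change (LNA29 over saline, limma on log2(value + 1)) of the 50 interferon-stimulated genes, grouped by role, with bars for 1 SE. Black points have an unadjusted limma p under 0.05, grey points do not, and the dashed green line is the median of all genes tested (-0.093). 45 points lie left of 0.

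The same tilt was seen by other rules of calling. With the study's thresholds (a ratio of means of at least 1.5 and a one-sided p of at most 0.05, here from an exact permutation test), 12 members were lower and 0 higher, against 4.14% and 2.04% of all genes. Oasl1 was the 1 member with all 6 LNA29 livers below all 6 saline livers, a pattern shown by 0.713% of all genes, and no member had the opposite pattern (0.272% of all genes). On recovered reads, edgeR gave 8 members lower at an unadjusted p under 0.05 (3.84% of all genes) and DESeq2 also 8 (3.4%), all among the 13 by limma. By edgeR 42 members were lower, with a median of -0.38, against 52.2% and -0.016 of all genes. Those tests also moved the balance over all genes: 75.4% of calls were lower by limma and 54.6% by edgeR.

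**Figure D2:**
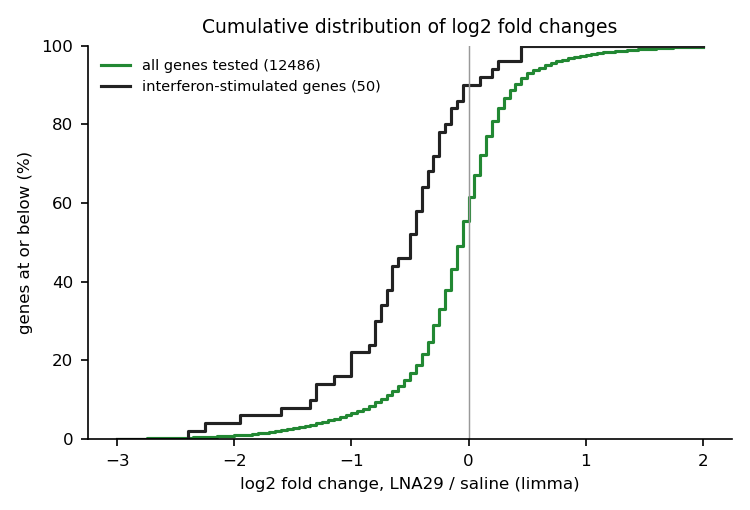
Cumulative percentage of genes at or below each log2 fold change (LNA29 over saline, limma) for the 50 interferon-stimulated genes (black) and the 12486 genes tested (green). The black curve lies left of the green one, with medians of -0.51 and -0.093.

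Fold changes were larger where fewer reads lay behind a member. Among the 29 members with a mean of 10 or more reads, 25 were lower, the median was -0.36 and 8 passed the unadjusted limma threshold, against 60.7%, -0.068 and 7.09% lower calls of all genes at that depth. The 21 with fewer reads had a median of -0.88, with 20 lower and 5 lower past that threshold. All genes that shallow had a median of -0.23, with 62.8% lower and 3.76% lower past the threshold. In such members a liver without reads is set at 1, which can enlarge the log2 difference. Of the 14 members with such a liver, those described below are given with edgeR's log2 fold change on recovered reads too.

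Among the 4 regulators, 3 were lower and 2 of these passed the unadjusted threshold. Stat2, a transcription factor of the response-element complex, had values of 1125, 1365, 1193, 1470, 1404 and 912 in the saline livers. In the LNA29 livers it stood at 825, 854, 887, 1250, 679 and 397. Only LNA29 replicate 50 lay within the saline range, and the log2 fold change was -0.67 ± 0.23 (SE, n = 6 per group, limma adjusted p = 0.377, exact permutation p = 0.0173). Irf7, the factor that amplifies interferon production, ranged from 875 to 2474 in saline livers (median 1588) and from 585 to 2113 in LNA29 livers (median 872). LNA29 replicate 48 was the high value, the groups overlapped, and the log2 fold change was -0.67 ± 0.29 (limma adjusted p = 0.574, exact permutation p = 0.0887). Irf9, the DNA-binding part of the complex, had -0.21 ± 0.18 on the log2 scale. Trafd1, a damper of innate signalling, ranged from 1571 to 1842 in saline livers (median 1811) and from 1610 to 2075 in LNA29 livers (median 1936), a log2 fold change of 0.092 ± 0.13.

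All 5 sensors of foreign nucleic acid had lower means, with a median log2 fold change of -0.51. Dhx58 (LGP2), a helicase that tunes the RNA sensors, had values of 250, 302, 421, 390, 333 and 304 in the saline livers. The LNA29 livers gave 225, 366, 151, 89.3, 94.3 and 151. LNA29 replicate 46 alone reached into the saline range, and the log2 fold change was -1.05 ± 0.32, which is 2.06-fold lower (limma adjusted p = 0.29, exact permutation p = 0.0152). Zbp1, a sensor of Z-form nucleic acid linked to cell death, was counted with 5 to 18 reads in the saline livers and 0 to 4 in the LNA29 livers. Its values ran from 49.0 to 180 (median 125) and from 1 to 54.8 (median 36.6), so that only the lowest saline liver overlapped with the LNA29 group. The log2 fold change was -2.27 ± 0.69 by limma (adjusted p = 0.282, exact permutation p = 0.00433) and -1.68 by edgeR on recovered reads. Ddx58 (RIG-I) ranged from 351 to 560 in saline livers (median 438) and from 189 to 671 in LNA29 livers (median 307). LNA29 replicate 54 was its highest liver of all, 4 LNA29 livers were under the lowest saline one, and the log2 fold change was -0.42 ± 0.27 (limma adjusted p = 0.761). Ifih1 (MDA5) and Eif2ak2 (PKR), the other two RNA sensors, had log2 fold changes of -0.34 and -0.51, neither past the unadjusted threshold.

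The oligoadenylate synthetase family, whose active members make the messenger that switches on RNase L, had 7 of 8 members lower and 2 past the unadjusted threshold. Oasl1, a family member known to hold back Irf7 translation, had values of 344, 635, 737, 330, 384 and 402 in the saline livers. The LNA29 livers gave 288, 293, 264, 232, 189 and 247, all below the lowest saline liver. Its log2 fold change was -0.85 ± 0.24, or 1.8-fold lower (limma p = 0.0027, adjusted p = 0.237, exact permutation p = 0.00216, the smallest that 924 divisions of the livers can give). Oas2 had 3 to 9 reads in saline livers (values 46.9 to 90, median 54.7) and 0 to 4 in LNA29 livers (values 1 to 53.6, median 38.1). LNA29 replicates 48 and 52 had no read for it, and its log2 fold change of -1.97 ± 0.86 by limma (adjusted p = 0.58) became -0.96 by edgeR, with an unadjusted p of 0.0918. The Oas1 genes lie side by side and resemble each other closely, so RSEM had to divide shared reads among them and their single values are uncertain. Oas1a had a higher mean (0.43 ± 0.57 on the log2 scale), while Oas1b, Oas1c and Oas1g had -1.03, -0.78 and -0.33 (-0.89, -0.66 and 0.33 by edgeR), all with under 4 reads per liver on average. Oas1a became -0.036 without saline replicate 43. Oas3, the long form of the enzyme, had -0.84 by limma and -0.081 by edgeR, and no read in LNA29 replicate 50.

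**Figure D3:**
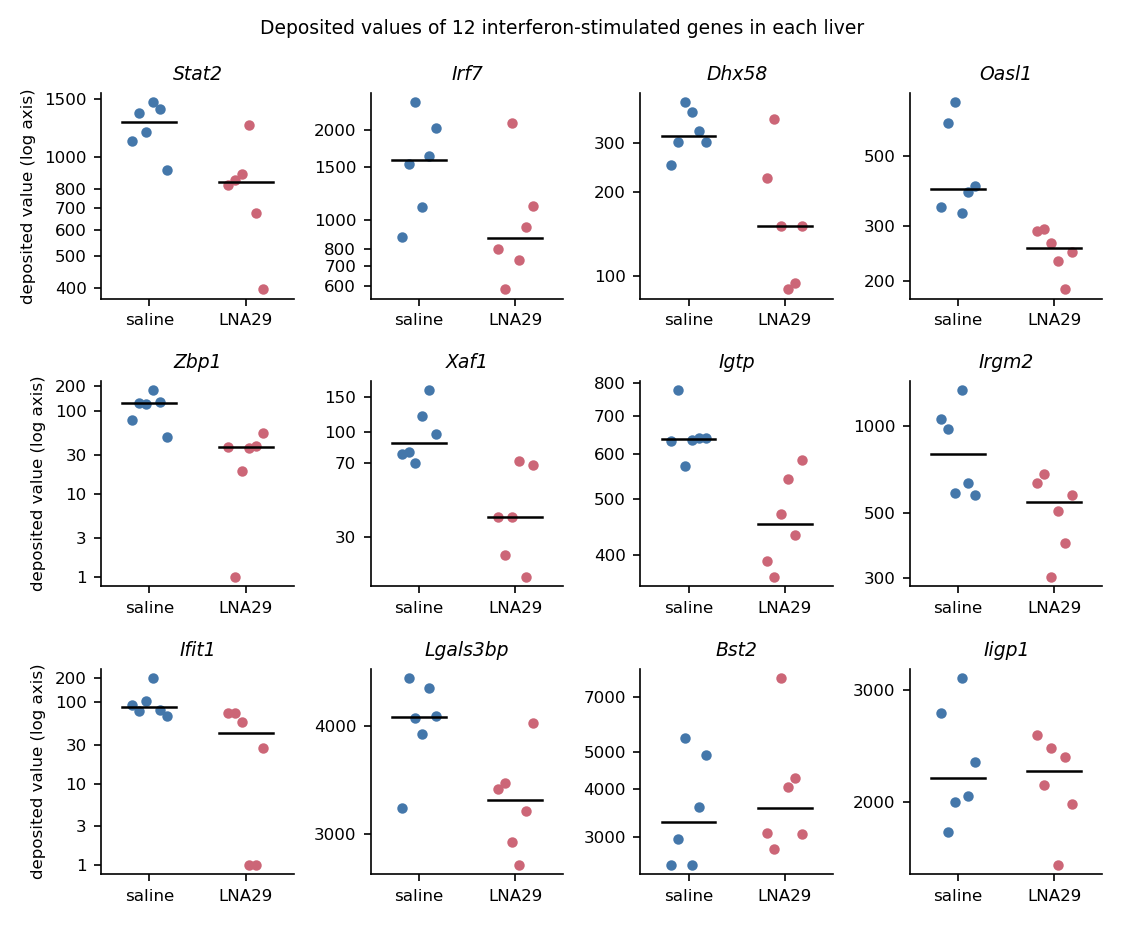
Deposited values (log axis, library upper quartile = 1000, no reads = 1) of 12 members in the 6 saline (blue) and 6 LNA29 (red) livers, in replicate order from left to right, with the median of each group as a line. Among the 12, only Oasl1 has no overlap between groups.

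Of the 15 antiviral effectors, 12 had lower means, with a median log2 fold change of -0.60, and 3 passed the unadjusted threshold. Xaf1, a partner of cell-death regulators, ranged from 70.2 to 162 in saline livers (median 88.7) and from 18.9 to 71.4 in LNA29 livers (median 37.6). LNA29 replicate 50 just entered the saline range, and the log2 fold change was -1.31 ± 0.44, or 2.48-fold lower (limma adjusted p = 0.357, exact permutation p = 0.00433), from 1 to 16 reads per liver. Ifit1, which binds viral RNA that lacks the host cap, had values of 68.6 to 200 in saline livers (median 87.3) and 1 to 75 in LNA29 livers (median 42.0). No read was counted in LNA29 replicates 50 and 52, 4 LNA29 livers were under the lowest saline liver, and the log2 fold change was -2.44 ± 0.89 by limma (adjusted p = 0.442, exact permutation p = 0.00866) against -1.34 by edgeR. Its relatives Ifit2 and Ifit3 had -1.31 (-1.28 by edgeR) and -0.54, neither past the unadjusted threshold.

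Lgals3bp, a secreted galectin ligand, was among the best counted members, with 141 to 438 reads per liver. It ranged from 3219 to 4540 in saline livers (median 4098) and from 2768 to 4027 in LNA29 livers (median 3288), with saline replicate 43 low and LNA29 replicate 54 high within their groups. The log2 fold change was -0.30 ± 0.13, or 1.23-fold lower (limma adjusted p = 0.583, exact permutation p = 0.026). Bst2 (tetherin), which holds budding virus at the cell surface, ranged from 2530 to 5456 in saline livers (median 3274) and from 2780 to 7849 in LNA29 livers (median 3564). LNA29 replicate 48 was its highest liver, the groups overlapped, and the log2 fold change of 0.16 ± 0.25 became -0.041 without that liver. Rsad2 (viperin), a radical enzyme that makes a chain-terminating nucleotide, had 0.42 ± 0.37, and Ifi35 had 0.20 ± 0.29. Mx1 and Mx2, the dynamin-like restriction factors, were counted with 8 reads or fewer in each liver and are uncertain. Mx1 had -1.61 by limma and -0.17 by edgeR, and Mx2 -0.85 and 0.06. Cmpk2, a mitochondrial nucleotide kinase, had -1.20 by limma and -0.25 by edgeR, and Samd9l -0.88 and -0.41.

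The ISG15 system, a ubiquitin-like tag with its ligase and protease, had 3 of 3 members lower and none past the unadjusted threshold. Isg15, the tag itself, ranged from 159 to 439 in saline livers (median 234) and from 53.6 to 293 in LNA29 livers (median 180). The groups overlapped, 3 LNA29 livers lay below the lowest saline one, and the log2 fold change was -0.70 ± 0.42 (limma adjusted p = 0.735). Usp18, the protease that removes the tag and also quiets the receptor, ranged from 105 to 350 in saline livers (median 242) and from 56.6 to 317 in LNA29 livers (median 176), a log2 fold change of -0.47 ± 0.40. Herc6, the ligase of the mouse, had -0.43 ± 0.43.

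Parp9, Parp14 and Dtx3l encode ADP-ribosyltransferases and the ubiquitin ligase that pairs with Parp9. Parp14 ranged from 281 to 490 in saline livers (median 358) and from 195 to 438 in LNA29 livers (median 235). LNA29 replicate 54 was the high liver of its group, 4 of the others were under the lowest saline value, and the log2 fold change was -0.51 ± 0.24 (limma adjusted p = 0.621, exact permutation p = 0.0411). Dtx3l ranged from 1212 to 2060 in saline livers (median 1306) and from 849 to 1488 in LNA29 livers (median 1206). The top value belonged to saline replicate 49, and the log2 fold change was -0.26 ± 0.17 (limma adjusted p = 0.773). Parp9 had -0.16 ± 0.21.

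All 7 interferon-induced GTPases in the table had lower means, with a median of -0.50 on the log2 scale. Igtp (Irgm3), which guards lipid droplets and vacuoles against intracellular microbes, had values of 633, 776, 573, 636, 639 and 639 in the saline livers. The LNA29 livers gave 390, 366, 472, 543, 434 and 585, so that only LNA29 replicate 54 reached above the lowest saline liver. The log2 fold change was -0.50 ± 0.18, or 1.41-fold lower (limma adjusted p = 0.417, exact permutation p = 0.00433). Irgm2, its neighbour with the near-identical promoter stretch shown above, had values of 1055, 970, 585, 1324, 634 and 577 in the saline livers. The LNA29 livers gave 635, 683, 302, 511, 396 and 579. Saline replicates 43, 45 and 49 were high, the other saline livers overlapped with the LNA29 group, and the log2 fold change was -0.71 ± 0.25 (limma adjusted p = 0.427, exact permutation p = 0.0411). Iigp1, the effector that breaks open parasite vacuoles, ranged from 1794 to 3140 in saline livers (median 2177) and from 1589 to 2550 in LNA29 livers (median 2240). Its groups overlapped, with a log2 fold change of -0.10 ± 0.16. Gbp2 had a log2 fold change of -1.39 ± 0.73 from a mean of 5.25 reads, -0.71 by edgeR, and one LNA29 liver without reads. Gbp3, Ifi47 and Irgm1 had -0.65, -0.43 and -0.36.

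Both chemokines that draw T cells through Cxcr3 were lower on average. Cxcl9 ranged from 60.6 to 127 in saline livers (median 108) and from 37.5 to 89.3 in LNA29 livers (median 64.0). Saline replicate 51 was the low liver of its group and the others were above every LNA29 liver, with a log2 fold change of -0.79 ± 0.37 (limma adjusted p = 0.63, exact permutation p = 0.0195) from 2 to 13 reads. Cxcl10 had -1.04 ± 0.78 by limma and -0.61 by edgeR from at most 6 reads in a liver.

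The 3 genes of MHC class I peptide supply had the smallest median of the role groups, -0.15, and none passed the unadjusted threshold. Psmb8, an immunoproteasome subunit, ranged from 594 to 1246 in saline livers (median 746) and from 463 to 1038 in LNA29 livers (median 722), a log2 fold change of -0.15 ± 0.22. Psmb9, another such subunit, ranged from 109 to 317 in saline livers (median 194) and from 75 to 293 in LNA29 livers (median 156), a log2 fold change of -0.26 ± 0.34. Tap1, the peptide transporter, had -0.054 ± 0.26, and its sign turned under several alternatives. Whether the role groups differ from each other was not tested.

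A few livers held many of the extremes, in both directions. Saline replicate 49 had the highest value of its group for 19 members and saline replicate 45 for 12, while saline replicate 47 had the lowest of that group for 16. LNA29 replicate 50 had the lowest value of its group for 20 members and LNA29 replicate 46 the highest for 15. The median deviation of the members from their means over the 12 livers was 0.13 to 0.58 (log2) in the saline livers and -0.40 to 0.10 in the LNA29 livers. Over all genes tested the same medians were -0.024 to 0.24 and -0.072 to 0.12, with the highest again in saline replicate 49. Taken relative to the all-gene median of its liver, the members' median was 0.11 to 0.42 in the saline livers and -0.38 to 0.16 in the LNA29 livers. The groups did not overlap before that step and overlapped after it, since LNA29 replicate 46 (0.16) then lay level with saline replicate 47 (0.16) and above saline replicates 43, 51 and 53 (0.11 to 0.14). In saline replicate 49, values were also higher for longer transcripts, against the other livers (Spearman's rho of 0.466 across 11344 genes, which are not independent replicates). Weaker trends of both signs were seen elsewhere, with rho from -0.284 to 0.262 in the other saline livers and -0.232 to 0.24 in the LNA29 livers. The albumin share of saline replicate 49 was the lowest, and so was its median log2 deviation of the hepatocyte markers (-0.89). With each library's length trend as a covariate, added after seeing the data, 45 members were lower and 13 of them had an unadjusted limma p under 0.05, where the share of all genes was 9.06% in place of 5.97%. Irgm2 then had an adjusted p under 0.05, against 1.07% of all genes. Without saline replicate 49, 44 were lower, 10 at that threshold, and the median was -0.47. Leaving out 1 liver at a time kept the members' median log2 fold change between -0.58 and -0.39, and the number lower at an unadjusted p under 0.05 between 8 (without saline replicate 53) and 15.

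**Figure D4:**
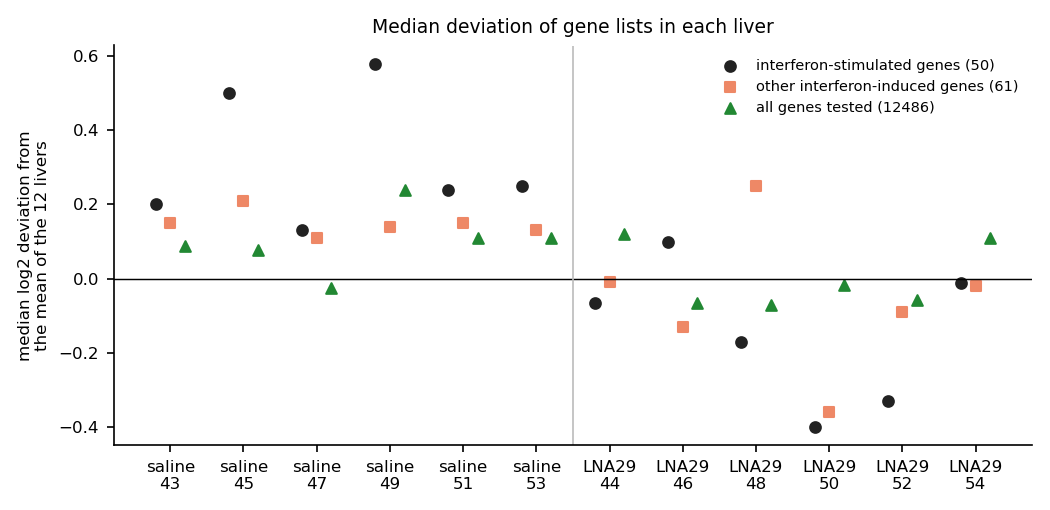
Median over genes of the log2 deviation from the mean of the 12 livers, for the 50 interferon-stimulated genes (circles), 61 other interferon-induced genes (squares) and all 12486 genes tested (triangles), in each liver. Circles lie at 0.13 to 0.58 in saline and -0.40 to 0.10 in LNA29 livers, but relative to the triangle of its own liver LNA29 replicate 46 (0.16) lies above 3 saline livers.

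Upstream of the members, interferon transcripts were nearly absent and receptor values were close between groups. Of the 16 interferon genes in the table, 15 had no read in any of the 12 livers, and Ifng had 1 read in 1 LNA29 liver. A count of 0 at this depth does not show absence of the protein. The receptor genes Ifnar1, Ifnar2, Ifngr1 and Ifngr2 had log2 fold changes of 0.11 ± 0.15, -0.083 ± 0.16, -0.032 ± 0.24 and 0.10 ± 0.21. None of the 5 receptor genes tested passed the unadjusted threshold.

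Of the 9 kinases, STATs and IRFs on the pathway list, 7 were lower (77.8%) and 1 passed the unadjusted threshold. Of all genes tested, 61.4% were lower and 5.97% were lower past that threshold. Tyk2, a kinase of the type I receptor, ranged from 270 to 672 in saline livers (median 461) and from 171 to 425 in LNA29 livers (median 285), a log2 fold change of -0.72 ± 0.27 (limma adjusted p = 0.455, exact permutation p = 0.026). Jak1, Jak2 and Irf1 had -0.15, -0.14 and -0.37, and Irf2, which competes with Irf1 for its sites, had 0.16. Of the 14 negative regulators, 7 were lower, and Ptpn6, a phosphatase of leukocytes, passed the unadjusted threshold at -0.38 ± 0.18 (limma adjusted p = 0.621). Of 13 tested genes for sensing nucleic acid ahead of interferon, 9 were lower (69.2%, against 61.4% of all genes) and 0 passed the threshold.

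**Figure D5:**
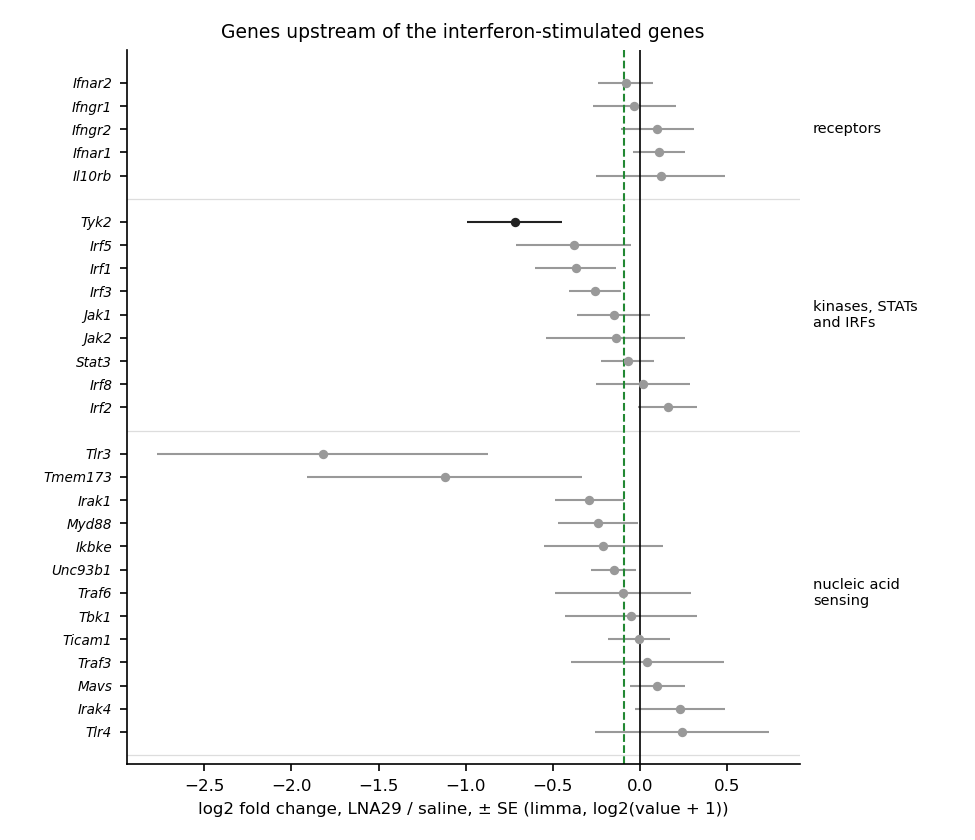
Log2 fold change (LNA29 over saline, limma on log2(value + 1)) of receptor genes, of kinases, STATs and IRFs, and of nucleic acid sensing genes ahead of interferon, with bars for 1 SE. The black point (Tyk2) has an unadjusted limma p under 0.05, and the dashed green line is the median of all genes tested (-0.093).

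Other interferon-induced genes, kept as a separate list of 61 tested genes, were also more often lower than higher. On this list 44 were lower (72.1%, against 61.4% of all genes tested), the median log2 fold change was -0.23, and 8 were lower at an unadjusted limma p under 0.05 (13.1%, against 5.97%) and 0 higher. Gbp6, a guanylate-binding GTPase, ranged from 159 to 380 in saline livers and from 56.6 to 125 in LNA29 livers, with no overlap and a log2 fold change of -1.42 ± 0.33 (limma adjusted p = 0.129). Pml, the scaffold of the nuclear bodies that also hold Sp100, ranged from 456 to 610 in saline livers and from 226 to 396 in LNA29 livers, again with no overlap, at -0.74 ± 0.19 (limma adjusted p = 0.186). Sp100 itself, a member, had -0.60 ± 0.30. Ifitm3, which blocks viral entry, had -0.47 ± 0.19 (limma adjusted p = 0.537). Nlrc5, the transactivator of MHC class I genes, had -1.08 ± 0.50 (limma adjusted p = 0.614). The MHC class I genes on the same list, named after their values were seen, were not lower. H2-D1, H2-K1, H2-T23 and H2-Q7 had 0.17, 0.025, 0.13 and 0.22. Genes of peptide supply on this list went both ways. The transporter gene Tap2 had 0.11, while Psme1, Psmb10, Tapbp and Psme2 had -0.30, -0.26, -0.087 and -0.015. B2m, the light chain of MHC class I, had -0.22, and none of these passed the unadjusted threshold. The difference between this list and the members was not tested.

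In whole liver, fewer cells of a type and less RNA per cell cannot be told apart, so marker genes of the cell types a liver holds were summed. The 6 general leukocyte markers came to 2516–3526 in saline livers and 2036–3849 in LNA29 livers, with 3 of 6 lower. The 13 Kupffer cell and macrophage markers came to 15281–23930 and 13821–26466, with 11 of 13 lower. Among them Folr2 was lower (-0.61 ± 0.26, limma adjusted p = 0.535) and Marco higher (1.08 ± 0.37, adjusted p = 0.391). The 8 sinusoidal endothelial markers came to 6460–6930 and 5375–6836, with 6 of 8 lower and Stab1 at -0.34 ± 0.14 (limma adjusted p = 0.567). The 17 T and NK cell markers came to 456–596 and 195–811, with 8 of them at 3 reads or fewer in every liver. The 6 B and plasma cell markers in the table came to 238–873 and 195–679, and the 4 of them tested were all lower, with a median log2 fold change of -0.99 and none past the unadjusted threshold. The 9 monocyte and neutrophil markers came to 52.6–127 and 24.4–245, and the 10 dendritic cell markers to 159–491 and 226–698, with 7 of each list at 3 reads or fewer in every liver. The 8 stellate cell markers came to 4930–5700 and 4585–6096, with 6 of 8 lower and Ngfr at -0.78 ± 0.30 (limma adjusted p = 0.487). The 6 bile duct markers came to 603–906 and 439–1170, with 2 of 6 lower. The 10 hepatocyte markers came to 34311826–115550211 and 88908146–106047005, with 3 of 10 lower. Sums of all these lists overlapped between the groups. Their medians were nevertheless lower in LNA29 livers, such as 6720 in saline and 5764 in LNA29 livers for sinusoidal endothelial markers. The exceptions were the monocyte and neutrophil list (81.7 and 97.3), the bile duct list (699 and 760) and the hepatocyte list (94564694 and 100366337). Of all genes tested, 61.4% had lower means. The part of these cell types in the members' values was not tested.

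Seed matches of the inhibited miRNAs were found in 4 members. The letters TGGTGCT, which match the shared seed, were found in the annotated 3′ UTR of 4 of 50 members (8%), against 1874 of 11098 tested genes with a UTR (16.9%). The members' UTRs were shorter, with a median of 978 bases against 1327. The 4 were Cxcl9 (-0.79), Rsad2 (0.42), Trafd1 (0.092) and Ddx58 (-0.42). For each gene only the coding transcript with the longest 3′ UTR was searched, and the match lay in the last exon of that transcript. A window of 30 bases with the match in capitals is shown for them, on the minus strand of GRCm38 in each case.
Cxcl9, chr5:92323285-92323314, exon 4 of 4: tgtctcagagaTGGTGCTaatggttttggg
Rsad2, chr12:26444095-26444124, exon 7 of 7: ggggtttttttTGGTGCTtatattaatact
Trafd1, chr5:121372036-121372065, exon 6 of 6: ccactgcttctTGGTGCTttgtggtcctga
Ddx58, chr4:40205640-40205669, exon 18 of 18: tggtttcaagcTGGTGCTgtccacacaaag

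Of these 4 genes, 2 were lower and 2 higher, and only Cxcl9 passed the unadjusted threshold. Among the 39 members with a promoter, the 19 with the core of the response element had a median log2 fold change of -0.535 and the others -0.431. Over the bases before the start alone these were -0.662 for the 16 with it and -0.429. At an unadjusted limma p under 0.05, 21.1% of members with the core were lower, against 25% of the others. Before the start alone these shares were 25% and 21.7%. For the gamma-activated site, the medians were -0.322 for the 8 members with it and -0.535 for the others. None of these differences was tested.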

How the data were processed

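Poly(A) RNA from 12 livers (6 saline, 6 LNA29) was sequenced as single reads. The authors mapped reads with MapSplice2 and quantified genes with RSEM (versions not given in the sources used here), and the submitters' processing notes name mm9. The authors deposited 1 table of signal values, scaled so that each library has its upper quartile, taken over detected genes, at 1000, with 1 standing for no reads. The deposited group means, signed fold change (a score) and one-tailed p-values were not used, and neither were 2 unnamed columns of values.

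Because 94.9% to 96.2% of low values (up to about 20 reads) were whole multiples of 1 read (within 0.1), reads were recovered and rounded. Genes whose mean value reached 10 (12486) were fitted on log2(value + 1) by limma (version 3.58.1, trended prior, R 4.3.3), and p-values were adjusted by Benjamini-Hochberg with 0.05 as threshold. Adding 1 shrinks the fold changes of low genes only a little, since 1 read is worth 9.80 to 24.4 units. A no-read value of 1 can widen them. Exact two-sided permutation tests over 924 divisions gave p-values for single genes. Recovered reads were also tested by edgeR (4.0.16) and by DESeq2 (1.42.0) as alternatives. All fits were tested on simulated data, with changes only in genes of at least 10 reads on average and 1 spread for all genes. Nearly all large changes (log2 of 2) were recovered, 106 of 109 by limma. Of 91 smaller ones (log2 of 1), limma recovered 30, edgeR 45 and DESeq2 50. The simulation therefore does not cover the 21 members with under 10 reads, nor changes smaller than log2 of 1. A first, stricter criterion for that recovery was not met and was replaced by one on the large changes. P-values measure the spread between livers, each from 1 mouse. No pair of libraries held identical values. Depth was 7696081 to 19062437 reads per liver.

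The members and all lists were chosen with earlier results of these data known. Values were given in full for the best counted member and that with the smallest p of each role, and for every member with an unadjusted limma p under 0.05 or with groups that did not overlap. Promoters and miRNAs came from RefSeq (GRCm38.p6), and 3′ UTRs from GENCODE M21 (GRCm38). A gene of the pathway lists is not reported here.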

Additional observations from a re-analysis of the deposited data

Results flagged for a closer look

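Within each group of 6 livers, a liver was set apart where its gap to the nearest other liver exceeded Dixon's 95% critical value. This held for 14 of 102 groups examined, where chance gives about 1 in 20, or 5.1. In 8 of the 14 the liver simply had no read, which is listed as a value of 1. These were LNA29 replicate 46 for Zbp1 (1, others 18.9 to 54.8) and Gbp2 (1, others 50 to 82.2), and LNA29 replicate 50 for Oas1b (1), Oas1g (1) and Oas3 (1, others 75.5 to 192, or 4 to 14 reads). LNA29 replicate 48 had 1 for Samd9l (others 48.8 to 56.6), saline replicate 43 had 1 for Oas1c, and saline replicate 47 had 1 for Ifit2.

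In the other 6 the values came from reads. Saline replicate 49 was high for Ifih1 (300, others 143 to 186), Dtx3l (2060, others 1212 to 1412) and Gbp3 (360, others 62.3 to 108). Saline replicate 45 was high for Igtp (776, others 573 to 639), and saline replicate 43 for Cxcl10 (93.8, others 17.5 to 31.7, from 6 reads). Saline replicate 47 was low for Sp100 (87.7, others 141 to 162). The cause of these values was not tested.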

How the results depend on the processing

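Of 50 members, 43 kept their sign under each of the 21 alternatives that tested them, among them the 13 with an unadjusted limma p under 0.05. The alternative with a mean of at least 100 tested 35 members, 8 of those 13 among them. That count of 13 became 8 with edgeR, with DESeq2, and with a mean of at least 100, and lay between 8 (without saline replicate 53) and 15 when 1 liver was left out. The count at an adjusted p under 0.05 was 0 in every alternative but a covariate for each library's trend with transcript length, added after seeing the data, where it was 1 (Irgm2, limma adjusted p = 0.039, log2 fold change -0.68) and 133 of all genes passed, up from 20. The count of members without overlap, 1, became 0 with a common median and 1 to 4 without 1 liver: 4 without saline replicate 47 or LNA29 replicate 54, 3 without saline replicate 53 or LNA29 replicate 50, and 2 without saline replicate 51 or LNA29 replicate 46. Signs turned for 7 members. With 1 liver left out, Oas1a ranged from -0.036 (without saline replicate 43) to 0.77, Oas1g from -0.62 to 0.40 and Oas3 from -1.13 to 0.18 (both highest without LNA29 replicate 50), Bst2 from -0.041 (without LNA29 replicate 48) to 0.29, Ifi35 from -0.034 (without saline replicate 43) to 0.34, and Tap1 from -0.22 to 0.11 (without LNA29 replicate 52). By edgeR and DESeq2, Oas1g came to 0.33 and 0.39, Mx2 to 0.06 and 0.062, and Tap1 to 0.049 and 0.059. With array weights Ifi35 came to -0.036 and Tap1 to 0.037. The cause was not tested. The share of promoters with the core was 41% over the bases before the start alone. No paired analysis was possible because the saline and LNA29 livers share no replicate number. Depth limits the 21 members with under 10 reads most.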
